A study of Mus musculus with 7 samples.

Results

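A set of 10 genes of the immediate early response were examined in mouse CD150-negative cells: Fos, Fosb, Fosl2, Jun, Junb, Jund, Egr1, Ier2, Atf3 and Zfp36. They were chosen by name, and all 10 of 10 were present among the 16760 genes of the deposited table. RNA was sequenced from 4 wild-type (WT) libraries and 3 libraries of genotype 5G2del, in which part of chromosome band 5G2 is deleted, syntenic to human 7q22. All 7 came from strain C57/B6 and carry the cell type label HSC (haematopoietic stem cell). The labels state no age, no zygosity and no way in which the deletion was made. They do not say whether each library came from a separate animal either, and the p-values then reflect the spread among libraries, which may be partly technical. Beside a serial number and a tag that the labels do not explain, the column names give a library's group only. A letter within the group (5G2del-A, WT-A and so on) names each library here, and libraries of the same letter are not paired.

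AP-1 is a transcription factor made of a FOS or ATF protein paired with a JUN protein through leucine zippers. Most of its genes, with Egr1, Ier2 and Zfp36, are immediate early genes. Such genes are transcribed within minutes of a growth factor, cytokine or stress signal, without new protein synthesis, and their mRNAs are short-lived. In the blood system of mice, Egr1 is known to restrain division and exit of stem cells from the marrow, and loss of Junb from stem cells to give a myeloproliferative disease. The same genes are also known to rise while tissue is dissociated and cells are sorted.

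The values are log2 CPM, counts divided by a size given to each library, on a log2 scale. These sizes lay between 34865420 and 55716549 counts. They are not the sums of the listed counts, which exceeded them in 5G2del-C (47664360 against 41220903) and WT-C (42038974 against 34865420) and were below them in the other libraries; CPM in 5G2del-C and WT-C are therefore higher than with the listed counts as library size. With these sizes, 3 counts, taken as a floor for counting error, equal 0.0538 to 0.0860 CPM. WT-B differed from the rest in its number of genes at 0 counts, 1104, where 83 to 492 were found elsewhere. Cux1, a gene of the deleted band used as a check of the labels, measured 7.06, 6.80 and 8.01 log2 CPM in the 5G2del libraries in the order of their letters, and 8.17 to 8.59 in WT. Kit, a receptor that marks blood progenitors, lay between 7.98 and 8.23 log2 CPM in all 7 libraries. Slamf1, which encodes CD150, was low, at 0.40, 0.63 and 0.65 in 5G2del and at -2.22 to -0.26 in WT. Its groups did not overlap, as was so for 5.70% of all genes. In bulk RNA, fewer cells that express a gene and less of its RNA per cell cannot be told apart.

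The FOS family supplies the partner of AP-1 that cannot pair with itself. Fos, on chromosome 12 (mm10, 85473890 to 85477273), was at 8.54, 7.82 and 8.74 log2 CPM in 5G2del and at 8.15, 7.64, 8.89 and 8.86 in WT, here and below in the order of the library letters. Fosb, on chromosome 7 (19302696 to 19310051), was at 6.98, 5.89 and 7.32 in 5G2del and at 6.46, 5.87, 7.07 and 6.71 in WT. For both genes WT-B and 5G2del-B were the lowest libraries, and the groups overlapped. Fosl2, which encodes FRA2, was at 4.84, 4.35 and 4.17 in 5G2del and at 4.41, 4.11, 4.75 and 4.02 in WT. It was highest in 5G2del-A and lowest in WT-D, an order unlike that of Fos and Fosb. Fosl2 is the 1 member on chromosome 5, and it ends 104.1 Mb before Cux1.

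The JUN family can pair with itself or with FOS and ATF proteins. Jun, on chromosome 4 (95049034 to 95052222), was at 9.29, 9.07 and 9.79 log2 CPM in 5G2del and at 8.62, 8.40, 9.04 and 9.39 in WT. Only WT-D among the WT libraries lay above a 5G2del library; it exceeded both 5G2del-A and 5G2del-B. Junb, a JUN protein that can oppose Jun, was at 5.30, 4.33 and 5.38 in 5G2del and at 4.81, 4.52, 5.64 and 5.16 in WT. Jund, the JUN gene that is known to be steadily expressed in resting cells, was at 4.66, 4.17 and 4.68 in 5G2del and at 3.61, 4.07, 4.61 and 4.68 in WT. Junb was lowest in 5G2del-B and Jund in WT-A, and both groups overlapped for each gene. The annotation places 173 of the 2301 exon bases of Junb opposite exons of Prdx2 and 232 of the 3189 of Jun opposite the antisense gene Junos. Strand was not stated for the counting, so reads there cannot be assigned. Prdx2, at 6.61 to 7.09 log2 CPM, varied less than Junb.

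Of 4 AP-1 genes, Fos, Fosb and Junb varied together (Pearson r of 0.91 to 0.95 between them), and Jun less closely with these (0.57 to 0.73). The promoters of these 4 genes are shown because their RefSeq starts lie close to the annotated gene starts. Each is the 250 bases before the RefSeq start (GRCm38.p6), 5′ to 3′ on the gene's strand, and capitals mark the TATA box (TATAAA, gene strand), the core of the cAMP response element (TGACG, either strand) and TGACATCA, the AP-1 site variant known from the Jun promoter (either strand).
Fos, chr12:85473640-85473889, plus strand: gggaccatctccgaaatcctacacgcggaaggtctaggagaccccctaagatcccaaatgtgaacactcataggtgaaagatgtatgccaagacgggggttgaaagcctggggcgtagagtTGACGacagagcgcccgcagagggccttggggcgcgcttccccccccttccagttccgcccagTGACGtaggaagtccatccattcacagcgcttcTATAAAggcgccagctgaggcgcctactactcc
Fosb, chr7:19310046-19310295, minus strand: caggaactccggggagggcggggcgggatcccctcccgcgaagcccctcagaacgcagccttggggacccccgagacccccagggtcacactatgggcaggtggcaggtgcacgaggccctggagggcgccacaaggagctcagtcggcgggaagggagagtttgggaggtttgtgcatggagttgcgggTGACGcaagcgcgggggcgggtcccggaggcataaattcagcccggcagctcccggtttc
Junb, chr8:84978749-84978998, minus strand: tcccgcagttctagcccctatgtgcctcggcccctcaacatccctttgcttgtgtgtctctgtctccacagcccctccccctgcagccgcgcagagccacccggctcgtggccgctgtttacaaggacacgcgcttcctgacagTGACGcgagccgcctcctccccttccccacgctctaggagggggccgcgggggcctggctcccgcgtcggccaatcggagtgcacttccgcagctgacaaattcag
Jun, chr4:95052223-95052472, minus strand: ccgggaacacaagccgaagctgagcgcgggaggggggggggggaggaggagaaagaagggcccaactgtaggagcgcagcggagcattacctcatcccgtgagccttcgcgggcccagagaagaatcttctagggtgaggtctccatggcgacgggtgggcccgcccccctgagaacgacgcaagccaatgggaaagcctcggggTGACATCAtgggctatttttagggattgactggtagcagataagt
In Fos, TGACG stood at -129 and -66 and the TATA box at -33 from the start. In Fosb TGACG stood at -60, in Junb at -106, and in Jun TGACATCA at -45. Windows of 8 members were searched. Those of Egr1 and Ier2 were not, and the counts say nothing about these genes. Of the 8, 4 held TGACG, against 17.8% of all 32851 windows. TGACATCA was in 1 of 8, against 2.93%, and the TATA box in 1 of 8, against 7.59%. The AP-1 site TGACTCA, the full element TGACGTCA and the EGR site GCGTGGGCG, on either strand, were in 0 of 8 windows, against 4.46%, 1.55% and 0.536%. A CArG box, the site of serum response factor, was in 1 of 8 windows, that of Zfp36, against 1.47%. The windows of Zfp36 and Fosl2 lie inside annotated exons of these genes. That of Jund ends at 70697738, before the annotated gene start at 70698949. That of Atf3, a minus strand gene, ends at 191183583, whereas the annotated gene reaches 191218039. None of these windows is shown, though all are among the 8 counted. The counts are matches of letters in short windows and not measured binding.

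The other members are a zinc finger factor, a bZIP factor and regulators of RNA. Egr1, on chromosome 18 (34859823 to 34864984), was at 9.05, 8.29 and 9.64 log2 CPM in 5G2del and at 7.99, 7.45, 9.59 and 9.17 in WT. The WT libraries alone spanned 4.41-fold. Ier2, a nuclear regulator of the growth response, was at 6.69, 6.54 and 7.30 in 5G2del and at 6.04, 5.88, 6.83 and 6.87 in WT. Zfp36 encodes tristetraprolin, which binds AU-rich mRNAs and speeds their decay. It was at 9.17, 8.20 and 9.43 in 5G2del and at 8.80, 8.20, 9.63 and 9.45 in WT. For these 3 genes the groups overlapped, and WT-B or 5G2del-B was lowest. Atf3, a bZIP repressor induced by stress, was near the floor in some libraries, with 61, 7 and 214 expected counts in 5G2del-A to 5G2del-C and 68, 1, 174 and 131 in WT-A to WT-D. Its log2 values at low counts depend on the offset of 0.5 count, and no fold is given for it across libraries.

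**Figure D1:**
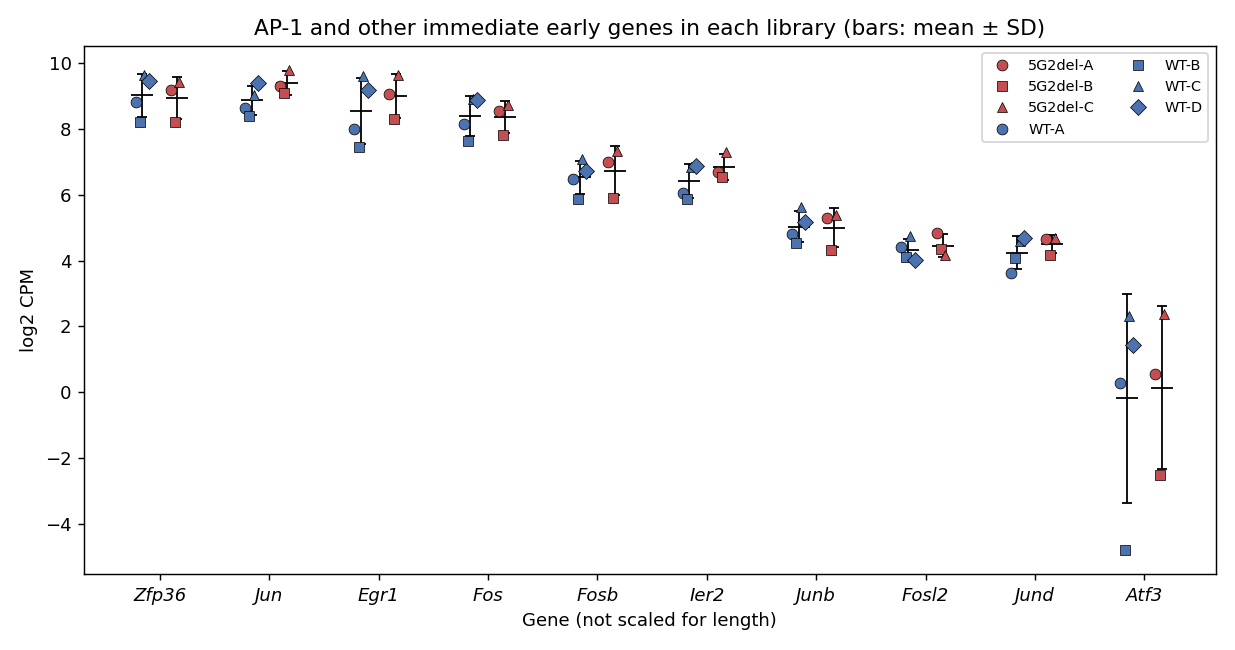
The log2 CPM of each gene is plotted for the 4 WT (blue) and 3 5G2del (red) libraries, with a marker shape per library letter and bars for the mean ± SD of each group. The groups overlap for each of the 10 genes, and WT-B lies at 7.64 for Fos and 7.45 for Egr1, the lowest of the 7 libraries.

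Levels of different genes were compared per kilobase of annotated exon. On that log2 CPM per kilobase scale, Jun was highest at 7.41 ± 0.47 (SD, n = 7), followed by Zfp36 at 7.19 ± 0.59, Fos at 7.14 ± 0.51, Egr1 at 6.57 ± 0.84 and Ier2 at 5.99 ± 0.49. Neighbours in this order had overlapping ranges. Within libraries, Fos lay above Egr1, and Egr1 above Ier2, in 7 of 7. Jun lay above Zfp36 in 5 of 7, and Zfp36 above Fos in 6 of 7. Ier2 was separated from Fosb, at 3.97 ± 0.57, without overlap, a difference of 2.02 ± 0.36 that held in 7 of 7 libraries. Junb at 3.82 ± 0.48 and Jund at 3.62 ± 0.41 overlapped with Fosb and each other. Fosl2 stood lower, at 1.10 ± 0.32, below Jund in 7 of 7 libraries, and Atf3 lower still at -1.15 ± 2.67, with a range that overlapped that of Fosl2.

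The comparison of 5G2del with WT asked whether these transcripts differed with the deletion. None of the 10 passed limma-trend at an adjusted p of 0.05, as for all genes tested (0 of 16760, or 0%, with 656 genes at an unadjusted p under 0.05, and 0 adjusted calls in the authors' deposited table). At an unadjusted p under 0.05 the count was 0 of 10 members, against 3.91% of all genes, and groups without overlap numbered 0 of 10, against 5.70%. Means were higher in 5G2del for 7 of 10 members, against 53.3% of all genes, with a median log2 fold change of 0.23 beside 0.03 over all genes. The estimate was largest for Jun, at 0.52 ± 0.25 (SE; 95% interval -0.03 to 1.07; limma unadjusted p = 0.0603, adjusted p = 0.989; exact permutation p = 0.229, two-sided, where 0.0286 is the smallest possible). Jun averaged 9.38 ± 0.36 log2 CPM across the 5G2del libraries (SD, n = 3), against 8.86 ± 0.44 across WT (SD, n = 4).

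Egr1 and Ier2 each had a log2 fold change of 0.44, with 95% intervals of -0.59 to 1.48 and -0.17 to 1.05. Jund was at 0.26 (-0.36 to 0.88), Fosb at 0.20 (-0.55 to 0.95) and Fosl2 at 0.13 (-0.41 to 0.67). Fos was at -0.02 (-0.71 to 0.67), Junb at -0.03 (-0.71 to 0.65) and Zfp36 at -0.09 (-0.87 to 0.70). Each interval holds 0, and those of Fos, Junb and Zfp36 reach well to both sides of it, so neither a moderate rise nor a moderate fall was detectable with these libraries. The adjusted p for these 8 genes was at least 0.989. The fitted value of Atf3, 0.32 with an interval of -3.22 to 3.86, rests on libraries near the floor.

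Single libraries moved these estimates. Without 5G2del-C the log2 fold change of Jun was 0.32 and that of Ier2 0.21. Without WT-B that of Egr1 was 0.07 and without 5G2del-B it was 0.79, while Jund was at 0.05 without WT-A. The unadjusted p of Jun was 0.0146 without WT-D and 0.0381 without 5G2del-B, and 0.261 without 5G2del-C; its adjusted p was at least 0.840 with any library left out.

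**Figure D2:**
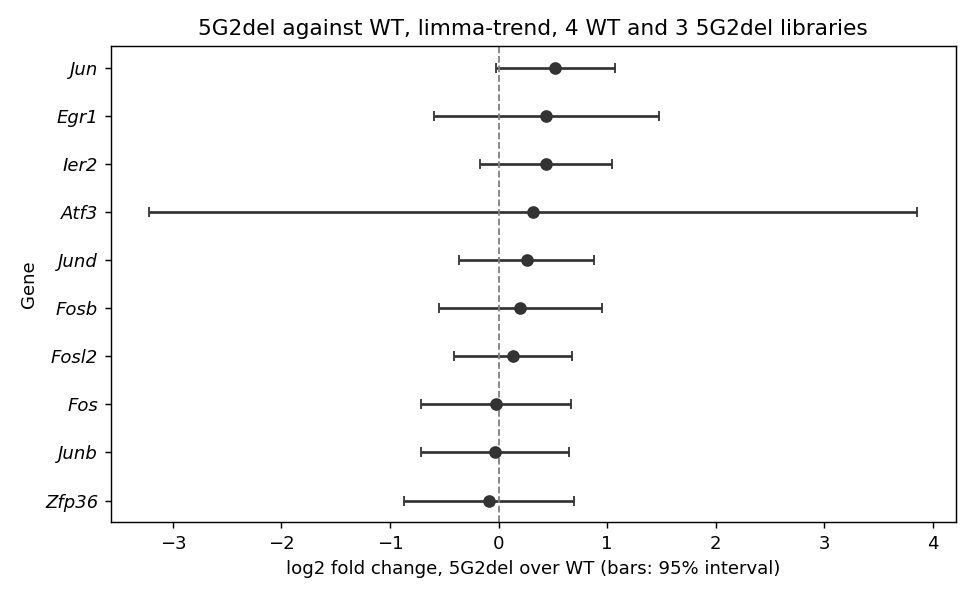
Points give the limma-trend log2 fold change of 5G2del over WT for each gene, with bars for the 95% interval. All 10 intervals hold 0, that of Jun from -0.03 to 1.07.

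The members differed widely between libraries of the same group. The summed CPM of the 10 genes was 1181 in WT-B, 1583 in 5G2del-B, 1594 in WT-A, 2427 in 5G2del-A, 2715 in WT-D, 2916 in WT-C and 3203 in 5G2del-C. In WT-B and in 5G2del-B, 0 of the 10 members lay above their own mean over the 7 libraries. In 5G2del-A 10 did, and in each of 5G2del-C, WT-C and WT-D 9 did. High and low libraries thus stood in both groups. With the listed counts as library size, the summed CPM of the members was 1291 in WT-B, 1702 in WT-A, 1720 in 5G2del-B, 2418 in WT-C, 2636 in 5G2del-A, 2763 in WT-D and 2770 in 5G2del-C, so that WT-C no longer stood above 5G2del-A and WT-D. WT-C exceeded WT-B for 10 of 10 members, by a median of 1.16 on the log2 scale, and 6 of the 10 by more than 1, whereas 7.52% of 10358 genes averaging over 2 log2 CPM differed by as much in that direction. In 5G2del, 5G2del-C exceeded 5G2del-B for 9 of 10 members, with a median of 0.98, and 5 members by more than 1, against 2.67% of genes. These library pairs were picked after the values were seen, and the figures are a description.

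The residual SD within groups was 0.88 for Egr1, 0.65 for Zfp36, 0.61 for Fosb and 0.56 for Fos, against a median of 0.32 over genes with a mean log2 CPM over 2. Egr1 exceeded 100% of the 103 other genes within 0.5 log2 CPM of its level, Fosb 98.3% of 919 and Fosl2, at 0.34, 55.9% of 2666. Fosl2 and Jun (63.6% of 88) varied about as much as other genes of their level.

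Members moved together from library to library, though not all alike. Over the 7 libraries, 44 of 45 pairs had a positive Pearson r, with a median of 0.78; these are descriptions over libraries of both groups. Fos and Zfp36 were the closest pair (r = 0.99). Not scaled for exon length, Zfp36 minus Fos was between 0.39 and 0.74 log2 CPM in every library. Per kilobase the difference was 0.045 ± 0.12 (SD, n = 7), with Zfp36 higher in 6 of 7 libraries. Jun and Ier2 came next (r = 0.965), with a difference, not scaled for length, of 2.49 ± 0.13 log2 CPM (SD, n = 7). Fosl2 stood aside, with r = 0.24 against the mean of the other 9 members, where Egr1 had 0.98 and Jun 0.77. Without WT-B and 5G2del-B, the libraries farthest from the median, the median over pairs was 0.79.

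Differences between Jun and other members were also taken within each library. These differences are not scaled for exon length, and their sign does not rank the genes per kilobase. Jun minus Fos was 0.75, 1.26 and 1.05 log2 CPM in 5G2del-A to 5G2del-C. In WT-A to WT-D it was 0.47, 0.76, 0.15 and 0.53. The groups overlapped by 1 library, since WT-B at 0.76 lay above 5G2del-A at 0.75. Against Zfp36 the difference was 0.12, 0.87 and 0.36 in 5G2del and -0.18, 0.20, -0.59 and -0.05 in WT, and against Ier2 it was 2.54 ± 0.06 (SD, n = 3) and 2.46 ± 0.17 (SD, n = 4). For each of the other 9 members the groups overlapped in this difference, and it was not tested, because it was chosen after the values were seen.

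Many of the other immediate early genes were low in WT-B and 5G2del-B as well. Of 31 listed, 29 were in the table, 16 higher and 13 lower in 5G2del, with 0 past the adjusted and 0 past the unadjusted threshold and a median log2 fold change of 0.10. Rhob, a small GTPase, had 0.57 ± 0.29 (SE; limma unadjusted p = 0.0688) and the nuclear receptor Nr4a2 -0.48 ± 0.35 (unadjusted p = 0.195 in limma). Of the 21 with a mean log2 CPM over 2, 9 had r over 0.9 with the members' scaled mean, against 0.638% of 10349 genes. Nr4a1, a nuclear receptor, was at 6.80, 5.49 and 6.83 log2 CPM in 5G2del and at 5.92, 5.15, 7.31 and 6.54 in WT. Klf4, a Krüppel-like factor, was at 3.48, 1.69 and 4.42 in 5G2del and at 3.17, 0.39, 4.83 and 3.56 in WT. Both were lowest in WT-B and 5G2del-B and were named after their values were seen. Myc, also an immediate early gene, did not follow, at 8.34, 8.15 and 7.74 in 5G2del and at 8.26, 8.21, 8.18 and 7.68 in WT. The 5 most similar genes of 10349 were Ier3 (r = 0.98), Cebpzos (0.98), Lcp2 (0.98), Bcl2l2 (0.98) and 2810013P06Rik (0.98), and Ier3, an immediate early gene that modulates survival signalling, was the 1 among them in a list.

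**Figure D3:**
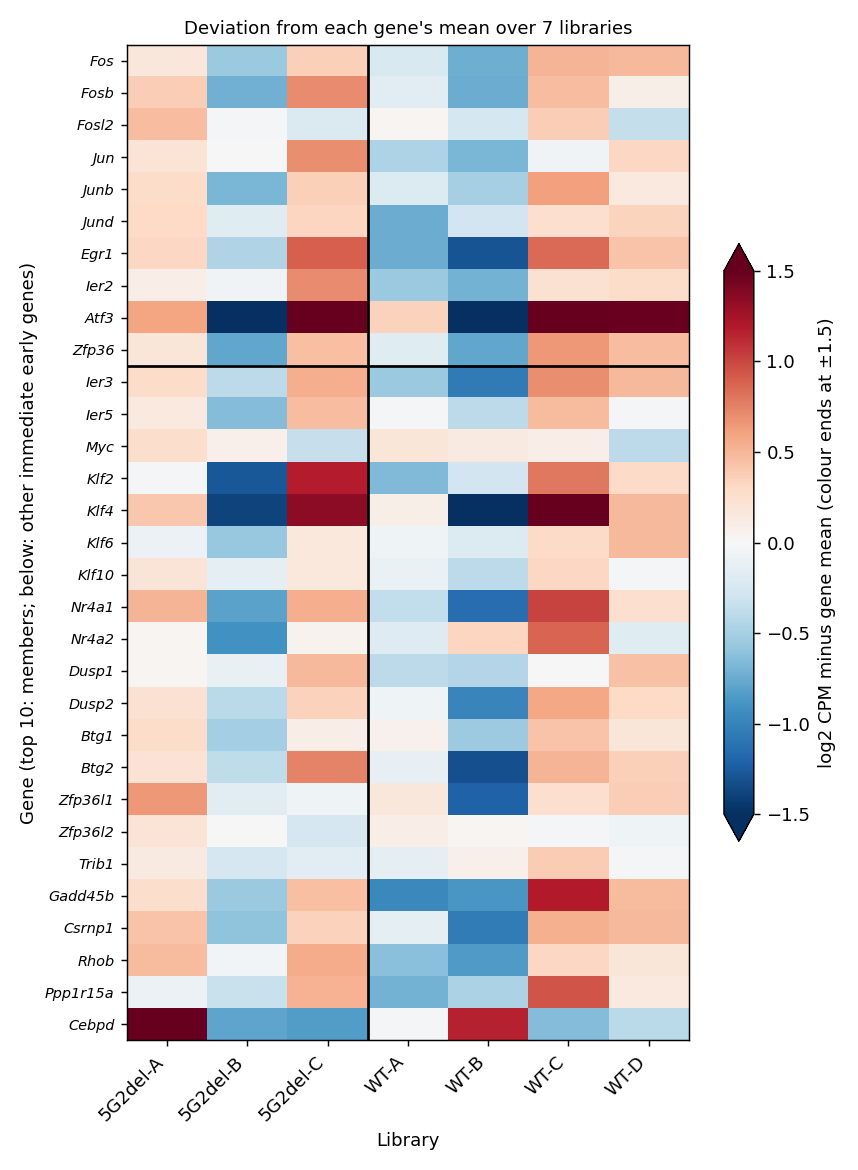
Colours give log2 CPM minus each gene's mean over the 7 libraries, for the 10 members above the line and 21 other immediate early genes below it. WT-B and 5G2del-B are blue for nearly all members (0 of 10 above the mean in each), while 5G2del-C, WT-C and WT-D are red for 9 of 10.

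Other partners of AP-1 and the machinery upstream of it had medians close to that of all genes. Of 12 measured further bZIP genes, 7 were higher and 5 lower in 5G2del, 0 at an unadjusted p under 0.05, with a median of 0.05; Jdp2, which represses AP-1, had 0.36 ± 0.25 (SE) and Batf, a lymphoid partner of JUN, 0.14 ± 0.31. Of 22 kinases, serum response factor partners and EGR corepressors, 12 were higher and 10 lower (median 0.04). Groups did not overlap for 2 of the 22, against 5.70% of all genes. These were Map2k1 (0.27 ± 0.18, SE) and Map2k7 (0.37 ± 0.18), both higher in 5G2del. Past an unadjusted p of 0.05 was 1 of the 22, against 3.91% of all genes, and 0 were past the adjusted threshold. That gene, Rps6ka3, the RSK2 kinase downstream of ERK, had a log2 fold change of -0.46 ± 0.17 (SE; limma unadjusted p = 0.0215, adjusted p = 0.989). It was at 7.06, 6.53 and 6.65 log2 CPM in 5G2del and at 7.38, 7.10, 7.32 and 7.03 in WT, where WT-D lay below 5G2del-A. The median r with the members was 0.66 over 9 bZIP genes and -0.29 over 21 upstream genes. Without WT-B and 5G2del-B these were 0.44 and -0.52.

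Tristetraprolin is known to bind mRNAs of inflammatory mediators, of which 9 of 14 listed were in the table. They split 3 higher and 6 lower in 5G2del, with a median of -0.04 and 0 past the unadjusted threshold. Ptgs2, the inducible cyclooxygenase, had -0.66 ± 0.65 (SE) and the chemokine Ccl3 -0.51 ± 0.58. Ccl3 was at 5.74, 4.50 and 5.86 log2 CPM in 5G2del and at 5.41, 4.45, 7.47 and 6.18 in WT, lowest in WT-B and 5G2del-B, as was Zfp36.

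Heat shock and stress genes, which are likewise known to rise with cell handling, had another order of libraries. Of 20 measured, 12 were higher and 8 lower in 5G2del, 0 at an unadjusted p under 0.05, with a median log2 fold change of 0.06. Hspa5, a chaperone of the endoplasmic reticulum, had 0.44 ± 0.20 (SE) and Hsph1, a cytosolic cochaperone, 0.47 ± 0.42. Hspa1a, the inducible HSP70, was at 1.01, 5.08 and 2.09 log2 CPM in 5G2del and at 3.34, -1.60, -1.88 and 3.00 in WT. It was highest in 5G2del-B, where 0 of 10 members lay above their mean, and lowest in WT-C, where 9 did; it was singled out after its values were seen. The median r with the members was -0.08 over 15 genes of the list, and 0.47 without WT-B and 5G2del-B. Nfkbiz and Socs3 of this list, which are also induced by cytokines, had r of 0.86 and 0.85. The sources used here give no time or temperature of cell handling, and its part in the shared level of the members was not tested.

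**Figure D4:**
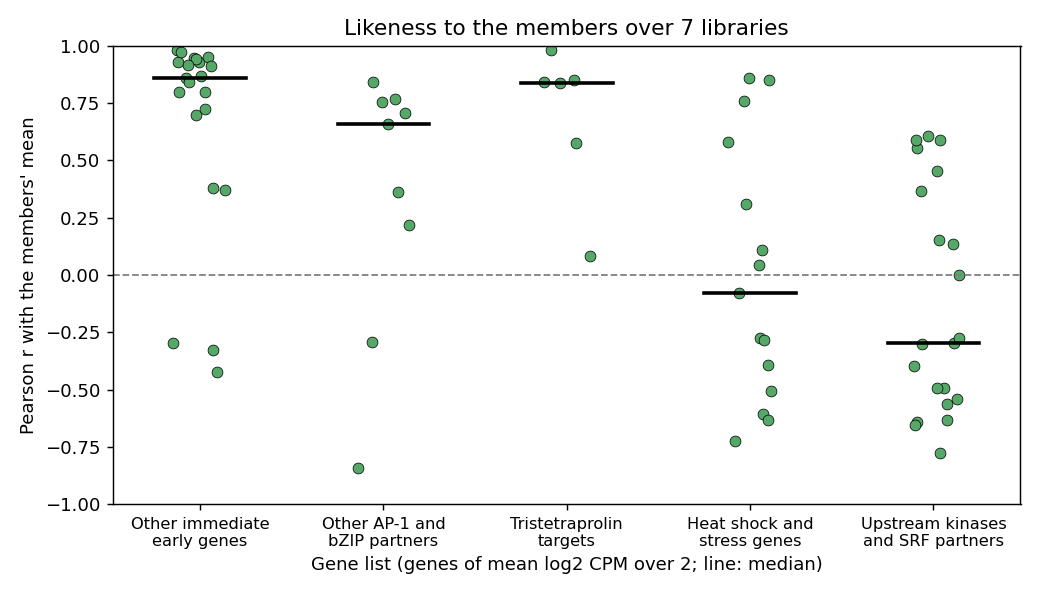
Each point is a gene with a mean log2 CPM over 2, and its height is the Pearson r of its 7 library values with the members' scaled mean; lines are list medians. The median is 0.86 for other immediate early genes and -0.08 for heat shock and stress genes.

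Values of other cell types and of RNA content differed among libraries too. Neutrophil and monocyte markers (13 of 16 in the table) summed to 1784, 288 and 372 CPM in 5G2del and to 683, 253, 324 and 278 in WT; 11 were higher and 2 lower in 5G2del, and Lcn2, Ltf, Chil3 and Ly6c2 were at 0 in some library. B lineage markers (7 of 11; 6 higher, 1 lower) summed to 568, 60.6 and 364 CPM in 5G2del and to 137, 33.5, 96.0 and 64.2 in WT, with Ebf1, Igll1 and Igkc among those at 0 in some library. T and NK markers (8 of 13; 3 higher, 5 lower) summed to 94.2, 59.2 and 69.1 CPM in 5G2del and to 65.2, 31.7, 54.4 and 67.0 in WT. Stromal and endothelial markers (7 of 11; 4 higher, 3 lower) summed to 63.7, 43.2 and 70.6 CPM in 5G2del and to 63.8, 46.4, 72.2 and 53.3 in WT. By these sums, these 4 of the 9 marker lists were lowest, within each group, in WT-B and 5G2del-B, where the members were low as well. Of these, mean log2 CPM kept this order for the T and NK list only. The stromal list was then lowest in 5G2del-A (-0.085) and WT-D (-0.099), against 0.76 in 5G2del-B and 0.35 in WT-B. The neutrophil and monocyte list was lowest in 5G2del-C and WT-D, and the B lineage list in 5G2del-B and WT-D. By the same measure, macrophage and dendritic markers were lowest in 5G2del-B and WT-B.

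Erythroid markers (11 of 13; 0 higher, 11 lower) summed to 115, 119 and 53.4 CPM in 5G2del and to 137, 269, 96.4 and 110 in WT, and megakaryocyte markers (8 of 9; 6 higher, 2 lower) to 305, 381 and 308 in 5G2del and to 251, 411, 217 and 302 in WT. Both sums were highest, within each group, in WT-B and 5G2del-B. By mean log2 CPM the megakaryocyte list kept this order, while the erythroid list was highest in 5G2del-A (2.44) and WT-A (2.87). Hba-a2, Slc4a1, Treml1, Trbc2, Klrd1 and Il2rb were among the erythroid, megakaryocyte and T and NK genes at 0 in some library. Macrophage and dendritic markers (8 of 12; 4 higher, 4 lower) summed to at most 31.2 CPM in each library, with Csf1r, C1qa, Itgax and Vcam1 at 0 in some library, as was Cxcl12 of the stromal list. Of mast cell and basophil markers 1 of 7, Cpa3, was in the table, at no more than 3.59 CPM. The mitochondrial rRNA share was 22.9%, 25.2% and 31.9% in 5G2del-B, WT-B and WT-A and 23.7%, 27.1%, 33.4% and 27.8% in 5G2del-A, WT-D, WT-C and 5G2del-C. The part of cell composition and RNA content in the members' level was not tested.

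Of the 76 genes in these cell type and progenitor lists, 7 (9.21%) had an unadjusted p under 0.05 in limma-trend, beside 3.91% of all genes, each with an adjusted p of 0.989. Itga2b of megakaryocytes had a log2 fold change of 0.93 ± 0.40 (SE), Nkg7 of T and NK cells 1.16 ± 0.49 and Cd48 of progenitors 0.99 ± 0.42. The other 4 were near or below the floor of 3 counts in some libraries, where a fitted fold depends on the offset, and are given as levels. Treml1 was at -0.22 to 1.04 log2 CPM in 5G2del and at -6.60 to -3.80, below the floor, in WT, and Il2rb at -6.42 to -4.04, below the floor, in 5G2del and at -2.66 to -0.73 in WT. Igkc was at 3.15 to 7.51 in 5G2del and at -6.60 to 3.44 in WT, and Jchain at 1.92 to 5.17 and at -4.28 to 1.74. The 4 genes used to check the deletion also had an unadjusted p under 0.05, with an adjusted p of at least 0.874; Cux1 was at -1.12 ± 0.25, Trim56 at -1.05 ± 0.19, Fis1 at -0.89 ± 0.24 and Lrwd1 at -0.90 ± 0.26. In lists with none, S100a8 (2.30 ± 1.63), S100a9 (2.00 ± 1.63), Hbb-bs (-0.65 ± 0.61), Hbb-bt (-0.55 ± 0.57), Cd68 (-0.05 ± 0.28), Pdgfrb (1.11 ± 0.77) and Pecam1 (-0.22 ± 0.25) had the largest estimates among genes over 2 log2 CPM.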

How the data were processed

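RNA was measured in 4 WT and 3 5G2del libraries. Per the labels' protocols, RNA was amplified with the Ovation system and sequenced as paired ends. The submitters' processing notes list the tools STAR 2.7.9a, RSEM 1.3.0 and limma 3.50.3 and, with no role, the builds mm10 and GRCh38. The authors deposited log2 CPM for 16760 genes, with their own log2 fold changes, p-values and q-values, and moderated t and log odds scores. How low genes were filtered and libraries scaled is not stated per the labels, and genes that were filtered out were not analysed here. Stepping the log2 CPM back gave expected counts, of which 69.8% to 73.2% per library were whole within 0.01, so no count model was used.

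The groups were compared with limma 3.58.1 (R 4.3.3) and its mean-variance trend, limma-trend, over all genes, without covariates, and with Benjamini-Hochberg adjustment. The fit was tested on simulated data. Single genes were also compared by two-sided exact permutation over 35 splits. The alternatives were no trend, voom weights, the authors' deposited p-values, quantile normalization, median-centred libraries, log2(CPM + 1), a filter at a mean log2 CPM of 2, each library left out and, added after seeing the data, the listed counts as library size. Named genes were the members, list genes at an unadjusted p under 0.05 or otherwise the 2 largest changes among genes over 2 log2 CPM, and the 5 genes most correlated with the members; exceptions are marked. The members and lists were chosen with earlier results of these data known. Positions come from GENCODE M21 on mm10, and promoters from RefSeq on GRCm38.p6. Promoter windows were searched for 8 of the 10 members, without Egr1 and Ier2. Single values of some cell type markers are not reported here.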

Additional observations from a re-analysis of the deposited data

Results flagged for a closer look

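The mean of the T and NK markers in WT was -0.47 log2 CPM in WT-B, apart from 1.12 to 1.44 in the other WT libraries. Of these markers, Trbc2 and Klrd1 were at 0 counts in WT-B, at -6.37 log2 CPM each, a value set by the offset of 0.5 count. Chance alone sets about 1 in 20 such groups apart. Among the 10 members, 0 had a WT library set apart in this way.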

How the results depend on the processing

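No member passed an adjusted p of 0.05 under any of the 15 alternatives run. The direction of Jun, Jund, Egr1 and Ier2 was kept under all of them. That of Atf3 turned with quantile normalization (-0.66) and with log2(CPM + 1) (-0.034). With 1 library left out, the log2 fold change of Fos ran from -0.27 to 0.25, of Fosb from -0.093 to 0.62, of Fosl2 from -0.066 to 0.27, of Junb from -0.22 to 0.30, of Zfp36 from -0.36 to 0.28 and of Atf3 from -1.22 to 1.65; the cause was not tested. Genes called at an adjusted p of 0.05 over the whole table numbered 1 without the trend and 0 to 1 with a library left out. Genes at an unadjusted p under 0.05 numbered 420 among those over 2 log2 CPM, where fewer genes were tested. Members at an unadjusted p under 0.05 numbered 1, Jun, with quantile normalization, 1, also Jun, with the listed counts as library size, a scaling chosen after seeing the data, and 0 to 1 with a library left out. Further immediate early, bZIP and upstream genes at that level numbered 0 without the trend and 0 to 3 with a library left out. No paired analysis was possible because the table's columns carry no replicate numbers, only serial numbers that no label ties to a sample. Amplified reads without molecular identifiers and 3 or 4 libraries a group limit the precision.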
